A study of Gallus gallus with 12 samples.

Results

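The proteasome genes described here are the 36 chicken genes whose array symbols begin with PSMA, PSMB, PSMC, PSMD, PSME, PSMF or PSMG followed by a number, out of 13008 genes with a symbol of their own on the array. They were chosen by symbol alone, leaving out PSMC3IP, which encodes a meiotic recombination protein. Of their 57 probe sets, the one with the highest mean over all 12 arrays stands for each gene. By role they are 7 alpha ring and 6 beta ring subunits of the core particle, 5 ATPase ring, 2 base and 6 lid subunits of the regulatory particle, 3 chaperones that build the base, 4 chaperones that build the core, 2 activators and 1 inhibitor. PSMB6, PSMC4, PSMD4, PSMD8, PSMD11 and PSME1 were not analysed here, since no probe set carried the symbol of any of them alone.

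The study measured total RNA of White Leghorn chicken embryos on Affymetrix chicken genome arrays, with 3 samples described as independent in each of 4 groups and 1 array per sample. PGC are primordial germ cells, the precursors of eggs and sperm, and GSC are the gonadal stromal cells. Both were obtained by magnetic sorting from pooled gonads of 100 embryos of mixed sex at day 6.5, and each sample held 270000 PGC or 9000000 GSC. CEF are fibroblasts grown from 5 embryos of day 6.5 per sample and cultured to passage 2, from the embryonic body according to the study design and from the muscular area according to the sample labels. Blastoderm samples are the dissociated cells of 5 freshly laid, unincubated eggs. No genotype or treatment differs between the groups, and 5 µg of RNA was labelled for every array. Culture applies to CEF alone, pooling of many embryos to PGC and GSC alone, and an earlier age to blastoderm alone, so none of these can be told apart from the cell type.

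The proteasome is the main machine for regulated protein breakdown in the cytoplasm and nucleus. Its core particle is a barrel of stacked rings in which the outer alpha rings gate the entrance and some subunits of the inner beta rings cut peptide bonds. The regulatory particle recognises proteins tagged with ubiquitin, removes the tag at its lid, and unfolds and threads the protein through its ring of ATPases. Dedicated chaperones assemble both particles, and other regulators can bind the ends of the core in place of the regulatory particle. Its genes are active in nearly all cells, and germ cells of several animals are known to use modified or alternative forms during sperm formation.

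Values are log2 signal levels as deposited, and array medians lay between 3.45 and 3.6. Background was set at 3.61, below which 99% of the probe sets for viruses and reporter genes lay. Array pairs correlated at 0.972 to 0.994 within groups and at 0.841 to 0.965 between groups. The 4 germ cell markers (DDX4, DAZL, KIT and DND1) had a median of 8.97 to 9.94 per array in PGC, against 4.80 to 5.04 in GSC, 2.05 to 2.69 in CEF and 5.65 to 5.80 in blastoderm. The 4 stromal markers (NR5A1, LHX9, GATA4 and AMH) stood at 5.68 to 7.20 in PGC and 8.10 to 8.43 in GSC. PGC replicate 3 had the lowest DDX4 of its group (9.30, against 10.40 and 10.48) and the highest NR5A1 (7.46, against 5.94 and 6.02). By their median per array, red cell markers were high in both gonadal groups (10.50 to 11.73 in PGC and 11.57 to 12.65 in GSC), against 3.45 to 3.77 in CEF and 3.61 to 4.44 in blastoderm. HEMGN among them was also high in blastoderm, with a mean of 8.54, against 7.16 in PGC, 8.64 in GSC and 3.36 in CEF. Kidney tubule markers were high in PGC alone (7.44 to 8.46, against 3.82 to 4.41 in GSC, 3.19 to 3.35 in CEF and 2.67 to 3.54 in blastoderm). Leukocyte markers stood at 4.51 to 6.70 in CEF and 4.19 to 4.74 in GSC, against 3.03 to 3.15 in PGC and 2.48 to 2.7 in blastoderm. Among them PTPRC had a mean of 7.62 in CEF and 4.49 in GSC, while CSF1R had 5.08 and 4.88. The 4 endothelial markers, all above background in both gonadal groups, stood at 4.24 to 5.40 in PGC and 5.98 to 6.20 in GSC, against 3.0 to 3.04 in CEF and 2.36 to 2.55 in blastoderm. In PGC all 4 stromal, 3 of 4 fibroblast, all 3 measured red cell and all 3 kidney markers were above background, and in GSC the same numbers were; the fibroblast marker below it in both was THY1. The 3′ minus 5′ signal of the control probe sets, which grows as RNA breaks down, was 0.23 ± 0.15 in PGC and 0.00 ± 0.08 in GSC, with 0.34 ± 0.33 in CEF and 0.55 ± 0.23 in blastoderm (log2, mean ± SD, n = 3). The part of these other cells and of RNA quality in the results below was not tested.

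All 36 proteasome genes had means above background in all 4 groups. Of the 36, 35 were among the 6504 well-expressed genes, those at or above the median gene level of 5.31. Their levels differed less between the groups than those of the well-expressed genes, which were not matched to them in level. The highest group mean exceeded the lowest by a median of 0.57 on the log2 scale (interquartile range 0.35 to 0.85), against 1.34 (0.86 to 2.11) for the well-expressed genes. A span of at least 1, which is a 2-fold difference, was reached by 5 of the 36 genes (13.9%), against 67.0% of the well-expressed genes. The 5 were the inhibitor PSMF1 (1.72), the core chaperone PSMG4 (1.38), the ATPase PSMC3 (1.24) and the lid subunits PSMD7 (1.03) and PSMD6 (1.01). The median SD within a group was 0.14 for the proteasome genes and 0.21 for the well-expressed genes. By the moderated F test of limma, 23 of 36 genes (63.9%) differed among the 4 groups at an adjusted p below 0.05, against 58.9% of all probe sets and 88.9% of the well-expressed genes.

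**Figure D1:**
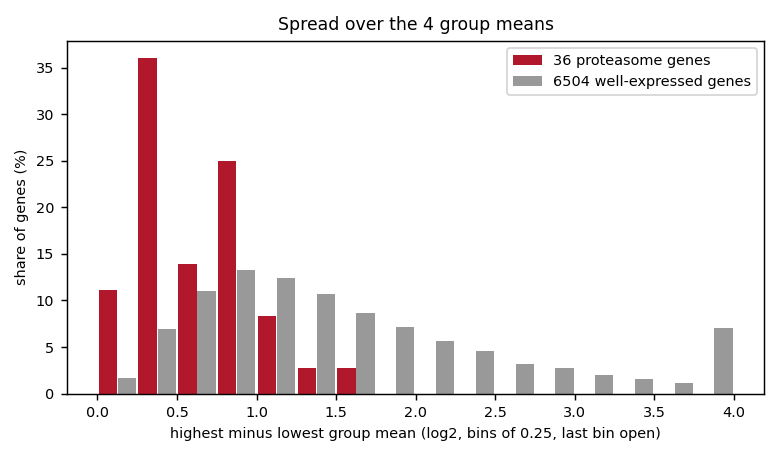
Histogram of the difference between the highest and the lowest of the 4 group means (x axis, log2) as a share of genes (y axis, percent), for the 36 proteasome genes (red) and the 6504 well-expressed genes (grey). The proteasome genes lie between 0.09 and 1.72 with a median of 0.57, and the well-expressed genes have a median of 1.34.

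The flattest genes were PSMA6, an alpha ring subunit, and the ATPases PSMC2 and PSMC6. PSMA6 averaged 10.12 ± 0.12 in PGC and 10.08 ± 0.14 in GSC, with 10.10 ± 0.03 in CEF and 10.03 ± 0.12 in blastoderm (SD, n = 3). The 95% intervals of all 6 differences between groups lay within 0.31 of 0 for PSMA6, which is 1.24-fold, within 0.39 for PSMC2 and within 0.41 for PSMC6. On the probe sets used, 9 of the 36 genes were called in none of the 6 comparisons: PSMA2, PSMA6, PSMB2, PSMB3, PSMB5, PSMB7, PSMC2, PSMC6 and PSMD3. The share of the well-expressed genes called in none of the 6 was not counted. For PSMB5 the intervals reached 0.80, which is 1.74-fold.

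CEF had the highest mean for 17 of the 36 genes, PGC for 9, blastoderm for 9 and GSC for 1. GSC had the lowest mean for 17, blastoderm for 9, and PGC and CEF for 5 each. Among the well-expressed genes, GSC had the lowest mean for 19.9% and CEF the highest for 25.3%. The array of GSC replicate 3 carried much of the count of lowest means in GSC. Its median deviation of the 36 genes from their own mean was -0.30, against 0.02 and -0.06 for GSC replicates 1 and 2. The other 9 arrays had median deviations between -0.01 and 0.14. Without GSC replicate 3, GSC had the lowest mean for 10 genes in place of 17, and CEF still had the highest mean for 17. The heat map of the 36 genes by array shows GSC replicate 3 below the gene mean over the alpha and beta ring genes.

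**Figure D2:**
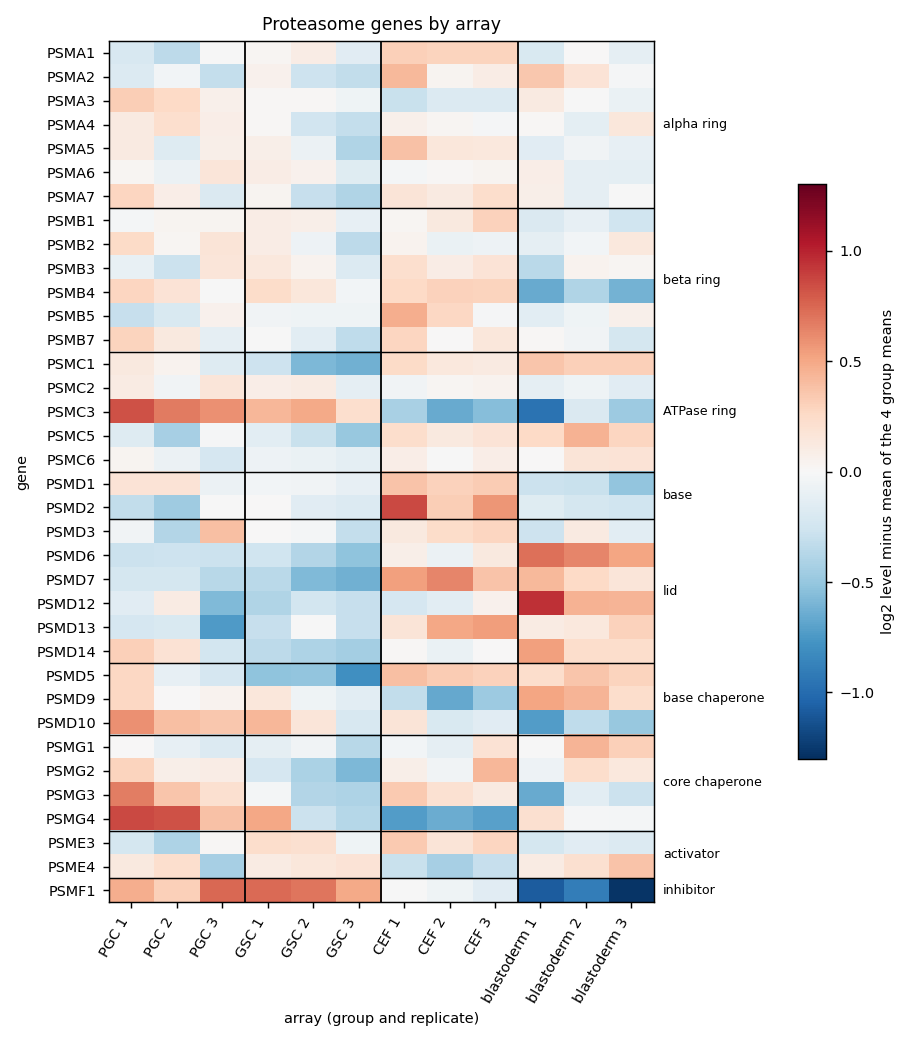
Level of each of the 36 proteasome genes (rows, grouped by role) in each of the 12 arrays (columns), as the log2 level minus the mean of the gene's 4 group means; red is above and blue below that mean. Most core particle genes stay near white, PSMB4 and PSMF1 are blue in all 3 blastoderm arrays, PSMC3 is red in PGC and GSC, and PSMD6 is red in blastoderm.

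A gene was called where limma gave an adjusted p below 0.05 over all 37693 probe sets tested. Both PGC and GSC are cells of the day 6.5 gonad, and 7 proteasome genes were called higher and 0 lower in PGC, where 10.8% of all probe sets were called higher and 11.1% lower, and 36.8% of the well-expressed genes were called in either direction. At an unadjusted p below 0.05 the counts were 9 higher and 1 lower. The share of all probe sets at that threshold was not counted, so these counts show no lean by themselves. The 7 were the core chaperones PSMG2, PSMG3 and PSMG4, the ATPase PSMC1, the base chaperone PSMD5, the lid deubiquitinase PSMD14 and the alpha subunit PSMA4, with log2 differences of 0.32 to 0.74. The median difference of the 36 genes was 0.11, against -0.05 for all probe sets and 0.04 for the well-expressed genes. It was 0.03 without GSC replicate 3, 0.17 without GSC replicate 1 and 0.06 with quantile normalization. The count rested on single arrays: it was 0 without PGC replicate 1, 2 without GSC replicate 2 or GSC replicate 3, 4 without PGC replicate 2 and 10 without PGC replicate 3, and none of the 7 calls held under all 23 alternatives.

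Against CEF, PGC had 6 genes called higher (19.6% of all probe sets) and 7 called lower (19.0%), and 59.3% of the well-expressed genes were called. Higher in PGC were PSMG4, PSMC3, PSMD9, PSMF1, PSMD10 and PSMA3, by 0.43 to 1.38. Lower in PGC were PSMD2, PSMD7, PSMD13, PSMA1, PSME3, PSMC5 and PSMD6, by 0.32 to 0.85 on the log2 scale. The median difference was -0.12, against -0.07 for all probe sets and 0.13 for the well-expressed genes. It was -0.06 without PGC replicate 3 and -0.07 without CEF replicate 3. Of these 13 calls, 7 held under all 23 alternatives.

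Against blastoderm, PGC had 7 genes called higher (18.2% of all probe sets) and 5 called lower (19.1%), and 62.1% of the well-expressed genes were called. PSMF1, PSMC3, PSMD10, PSMG3, PSMB4, PSMG4 and PSMD1 were higher in PGC, by 0.45 to 1.59. PSMD6, PSMD12, PSMD13, PSMD7 and PSMC5 were lower, 4 of the 5 being lid subunits. The median difference of 0.04 was close to 0, against -0.10 for all probe sets and 0.07 for the well-expressed genes. It took either sign, -0.02 without PGC replicate 1 or without blastoderm replicate 1, -0.07 without PGC replicate 3 and -0.11 with array weights. With array weights the median of all probe sets was also -0.11. Of these 12 calls, 7 held under all alternatives.

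In GSC against CEF, 5 genes were called higher (17.8% of all probe sets) and 13 lower (16%), and 52.5% of the well-expressed genes were called. The median difference was -0.25, against -0.04 for all probe sets and 0.04 for the well-expressed genes, and lay between -0.31 and -0.21 with each array left out in turn. Of the 18 calls, 7 held under all 23 alternatives. The 13 lower in GSC came from every part of the complex except the beta ring and the activators and inhibitor: PSMA1, PSMA5, PSMA7, PSMC1, PSMC5, PSMD1, PSMD2, PSMD6, PSMD7, PSMD13, PSMD14, PSMD5 and PSMG2. PSMC3, PSMF1, PSMG4, PSME4 and PSMD9 were higher in GSC. The lower count was 7 without CEF replicate 3 and 7 without GSC replicate 3. The higher count was 2 without CEF replicate 2, CEF replicate 3 or GSC replicate 1, and 3 without CEF replicate 1 or GSC replicate 2.

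In GSC against blastoderm, 5 genes were called higher (18.5% of all probe sets) and 10 lower (18.6%), and 64.3% of the well-expressed genes were called. PSMF1, PSMC3, PSMB4, PSMD10 and PSMD1 were higher in GSC, by 0.30 to 1.72. The 10 lower were PSMD6, PSMD12, PSMD7, PSMD14, PSMD5, PSMD9, PSMC1, PSMC5, PSMG1 and PSMG2, down to -1.01. The median difference was -0.08, against -0.07 for all probe sets and -0.01 for the well-expressed genes. It took either sign, 0.01 without GSC replicate 3, -0.05 without blastoderm replicate 3, -0.14 without GSC replicate 1 or with median centring and -0.01 with quantile normalization. The higher count was 3 without GSC replicate 1. Of the 15 calls, 8 held under all alternatives.

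In CEF against blastoderm, 8 genes were called higher (18.2% of all probe sets) and 5 lower (20.6%), and 67.6% of the well-expressed genes were called. PSMF1, PSMB4, PSMD2, PSMD1, PSMG3, PSME3, PSMA1 and PSMB1 were higher in CEF, by 0.34 to 1.02. PSMD9, PSMG4, PSMD12, PSMD6 and PSME4 were lower in CEF, down to -0.88. The median difference was 0.09, against -0.02 for all probe sets and -0.08 for the well-expressed genes, and was 0.14 without blastoderm replicate 2. Of the 13 calls, 9 held under all alternatives. The 6 comparisons share groups and so are not independent of each other. Over all 6, 78 of 216 gene-by-comparison pairs were called.

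**Figure D3:**
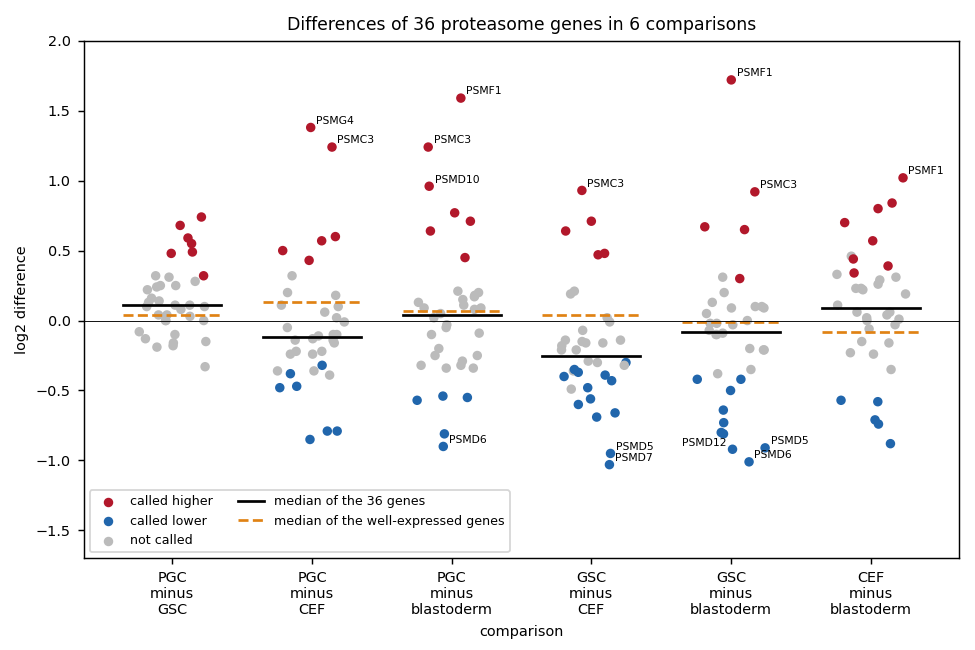
Log2 difference (y axis) of each of the 36 proteasome genes in each of the 6 comparisons (x axis); red points were called higher, blue lower and grey not called, the solid bar is the median of the 36 genes and the dashed bar that of the well-expressed genes. Called points lie on both sides of 0 in every comparison except PGC minus GSC, and the largest difference is PSMF1 in GSC minus blastoderm (1.72).

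PSMF1 encodes an inhibitor that blocks the core particle in the test tube, and its Drosophila counterpart is linked to sperm differentiation. It had the smallest F test p of the 36 genes (adjusted p = 7.21e-07). Its level was 7.92, 7.75 and 8.19 in PGC, 8.18, 8.14 and 7.94 in GSC, 7.44, 7.39 and 7.30 in CEF and 6.36, 6.55 and 6.17 in blastoderm. Both gonadal groups were above all CEF arrays and CEF above all blastoderm arrays, while the ranges of PGC and GSC overlapped. PSMF1 was 3.01-fold higher in PGC than in blastoderm (log2 1.59, SE 0.17, adjusted p = 1.51e-06). In GSC it was 3.30-fold higher than in blastoderm (log2 1.72, SE 0.17, adjusted p = 5.05e-07), and in CEF 2.03-fold higher (log2 1.02, SE 0.17, adjusted p = 1.19e-04). Against CEF it was higher by 0.57 in PGC (adjusted p = 0.0141) and by 0.71 in GSC (adjusted p = 0.00398). PGC and GSC differed by -0.13 (SE 0.17, adjusted p = 0.655). All 5 calls held under all 23 alternatives, every one of which used its 1 probe set, ending in _s_at. These are levels in a bulk sample, in which fewer cells expressing a gene and less RNA per cell cannot be told apart.

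The activators PSME3 and PSME4 cap the core particle without ubiquitin. PSME3 is a nuclear activator, and PSME4 is known in mice for the removal of histones in developing sperm. PSME3 read 9.15, 8.97 and 9.39 in PGC, 9.60, 9.58 and 9.32 in GSC, 9.72, 9.54 and 9.65 in CEF and 9.15, 9.23 and 9.20 in blastoderm. It was lower in PGC than in CEF (log2 -0.47, SE 0.13, adjusted p = 0.00832) and higher in CEF than in blastoderm (log2 0.44, SE 0.13, adjusted p = 0.0107), and no arrays of those groups overlapped. Both calls ended with the average of its probe sets (log2 -0.23 and -0.18), and a further PSME3 probe set above background, with a mean of 7.77, gave -0.30 and -0.11, neither called. PSME4 read 8.11, 8.21 and 7.56 in PGC, 8.09, 8.13 and 8.16 in GSC, 7.70, 7.55 and 7.69 in CEF and 8.09, 8.19 and 8.36 in blastoderm. PGC replicate 3 stood with the CEF arrays and the other PGC arrays with GSC and blastoderm. PSME4 was higher in GSC than in CEF (log2 0.48, SE 0.17, adjusted p = 0.0415), a call that ended without any single GSC or CEF array, without blastoderm replicate 2 and without blastoderm replicate 3 (log2 0.43 to 0.51). It was lower in CEF than in blastoderm (log2 -0.57, SE 0.17, adjusted p = 0.0141), a call that ended without CEF replicate 2 or blastoderm replicate 3 (log2 -0.63 to -0.50 over the 12 arrays left out in turn). Both other PSME4 probe sets, above background, were also called higher in GSC than in CEF (log2 0.70 and 0.58). They were called lower in CEF than in blastoderm as well (log2 -0.94 and -0.82).

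The alpha ring genes PSMA1 to PSMA7, which form the gated outer rings, had a median span of 0.36. By the F test 2 of 7 differed among the groups, against 58.9% of all probe sets and 88.9% of the well-expressed genes. PSMA1 averaged 9.78 ± 0.17 in PGC and 9.96 ± 0.12 in GSC, with 10.26 ± 0.01 in CEF and 9.86 ± 0.10 in blastoderm. It was lower in PGC than in CEF (log2 -0.48, adjusted p = 0.00246) and higher in CEF than in blastoderm (log2 0.39, adjusted p = 0.0089). PSMA3 took the opposite order, with 10.40 ± 0.13 in PGC and 10.17 ± 0.05 in GSC, with 9.96 ± 0.06 in CEF and 10.19 ± 0.11 in blastoderm, and was higher in PGC than in CEF by 0.43 (adjusted p = 0.00243). These 3 calls held under all alternatives. The calls of PSMA4 (PGC over GSC), PSMA1, PSMA5 and PSMA7 (all lower in GSC than in CEF) lay between 0.30 and 0.39 in size, and each ended without GSC replicate 2 or GSC replicate 3, among other single arrays.

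In the beta ring, PSMB5 carries the chymotrypsin-like site and PSMB7 the trypsin-like site. PSMB5 read 4.49, 4.59 and 4.85 in PGC, 4.75, 4.74 and 4.73 in GSC, 5.26, 5.06 and 4.78 in CEF and 4.65, 4.73 and 4.86 in blastoderm. The arrays of all groups overlapped except those of GSC and CEF, and the largest difference, PGC minus CEF, was -0.39 (SE 0.19, adjusted p = 0.12). PSMB7 read 10.36, 10.20 and 9.96 in PGC, 10.07, 9.94 and 9.74 in GSC, 10.35, 10.08 and 10.22 in CEF and 10.09, 10.03 and 9.84 in blastoderm. Its largest difference was GSC minus CEF at -0.30 (SE 0.13, adjusted p = 0.0798). Neither catalytic gene was called in any comparison on the probe set used. PSMB5, with a mean of 4.79, had the lowest level of the 36 genes and lay below the median gene level of 5.31 that defined the well-expressed genes. Its second probe set, with a mean of 4.45, was also low and was called in no comparison. Whether these low values come from the gene or from its probe sets was not tested. A second PSMB7 probe set, with a mean of 5.93, was called lower in PGC (log2 -0.88) and in CEF (log2 -0.83) than in blastoderm.

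PSMB4, a beta ring subunit without a catalytic site, was the exception in its ring. Its level was 10.22, 10.12 and 9.94 in PGC, 10.18, 10.09 and 9.91 in GSC, 10.20, 10.24 and 10.23 in CEF and 9.29, 9.55 and 9.33 in blastoderm. All 9 arrays of the other groups lay above all 3 blastoderm arrays. It was higher than in blastoderm by 0.71 in PGC (SE 0.11, adjusted p = 9.51e-05), by 0.67 in GSC (SE 0.11, adjusted p = 1.33e-04) and by 0.84 in CEF (SE 0.11, adjusted p = 1.22e-05). PSMB1, also without a catalytic site, was higher in CEF than in blastoderm by 0.34 (adjusted p = 0.0108), a call that ended without CEF replicate 3 or blastoderm replicate 3 (log2 0.26 to 0.40 over the 12 arrays left out in turn). The noncatalytic PSMB2 and PSMB3 had spans of 0.25 and 0.26.

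The ATPase ring unfolds substrates. By the F test 3 of its 5 measured genes differed among the groups, against 58.9% of all probe sets and 88.9% of the well-expressed genes. PSMC1 read 9.46, 9.38 and 9.17 in PGC, 9.07, 8.75 and 8.71 in GSC, 9.58, 9.47 and 9.45 in CEF and 9.69, 9.64 and 9.64 in blastoderm. All GSC arrays were below all others. The gene was lower in GSC than in CEF by 0.66 on the log2 scale (SE 0.13, adjusted p = 6.02e-04) and lower in GSC than in blastoderm (log2 -0.81, SE 0.13, adjusted p = 6.02e-05). In PGC it was higher than in GSC (log2 0.49, SE 0.13, adjusted p = 0.00913), a call that ended without PGC replicate 1 (log2 0.43 to 0.61 over the 12 arrays left out in turn).

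PSMC5 separated the gonadal groups from the other groups. It read 9.69, 9.43 and 9.84 in PGC, 9.72, 9.57 and 9.37 in GSC, 10.09, 9.99 and 10.04 in CEF and 10.12, 10.31 and 10.14 in blastoderm. All 6 PGC and GSC arrays were below all 6 CEF and blastoderm arrays. It was lower than in blastoderm in PGC (log2 -0.54, SE 0.12, adjusted p = 0.00253) and in GSC (log2 -0.64, SE 0.12, adjusted p = 5.63e-04), and lower in GSC than in CEF (log2 -0.48, SE 0.12, adjusted p = 0.0061). The difference between PGC and CEF (log2 -0.38, adjusted p = 0.0222) was no longer called without CEF replicate 1, CEF replicate 3 or PGC replicate 2 (log2 -0.48 to -0.27).

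PSMC3 was higher, not lower, in the gonadal groups than in the others on the probe set used. It read 7.58, 7.43 and 7.35 in PGC, 7.19, 7.25 and 6.97 in GSC, 6.33, 6.10 and 6.20 in CEF and 5.79, 6.57 and 6.28 in blastoderm. The gonadal arrays were all above the others. PSMC3 was 2.37-fold higher in PGC than in CEF (log2 1.24, SE 0.20, adjusted p = 1.20e-04) and 2.36-fold higher in PGC than in blastoderm (log2 1.24, SE 0.20, adjusted p = 1.22e-04). A second PSMC3 probe set, with a mean of 4.49, gave the reverse for PGC minus CEF (log2 -0.67) and for GSC minus CEF (log2 -0.90), both called. The direction of PSMC3 therefore depends on the probe set.

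PSMD1 and PSMD2 are the large scaffold proteins of the base, and PSMD2 docks the shuttle proteins that deliver substrates. Both were highest in CEF. PSMD1 read 9.92, 9.92 and 9.66 in PGC, 9.70, 9.69 and 9.63 in GSC, 10.11, 10.04 and 10.07 in CEF and 9.46, 9.45 and 9.23 in blastoderm. All blastoderm arrays were below, and all CEF arrays above, the arrays of the other groups. It was higher in CEF than in blastoderm by 0.70 (SE 0.11, adjusted p = 6.69e-05), higher in PGC than in blastoderm by 0.45 (SE 0.11, adjusted p = 0.00362) and lower in GSC than in CEF (log2 -0.40, SE 0.11, adjusted p = 0.00964). Its remaining call, GSC over blastoderm (log2 0.30, adjusted p = 0.0443), ended without any single GSC or CEF array and without blastoderm replicate 2 or 3 (log2 0.22 to 0.34).

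PSMD2 read 7.87, 7.73 and 8.18 in PGC, 8.19, 8.04 and 8.01 in GSC, 9.05, 8.51 and 8.76 in CEF and 8.03, 7.96 and 7.93 in blastoderm. CEF stood above the other groups, whose arrays lay within 7.73 to 8.19. It was lower than in CEF in PGC (log2 -0.85, SE 0.17, adjusted p = 6.48e-04) and in GSC (log2 -0.69, SE 0.17, adjusted p = 0.0036), and higher in CEF than in blastoderm (log2 0.80, SE 0.17, adjusted p = 8.67e-04). These 3 calls held under all 23 alternatives.

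In the lid, which removes ubiquitin chains, 18 of 36 gene-by-comparison pairs were called, against 7 of 12 in the base, 10 of 18 in the base chaperones, 12 of 24 in the core chaperones, 11 of 30 in the ATPase ring, 4 of 12 in the activators, 7 of 42 in the alpha ring, 4 of 36 in the beta ring and 5 of 6 for the inhibitor. In the 6 comparisons, 36.8% to 67.6% of the well-expressed genes were called. Of its 6 measured genes, 5 differed among the groups by the F test, and PSMD3 did not (adjusted p = 0.345). The share by this test was 58.9% of all probe sets and 88.9% of the well-expressed genes. The median deviation of the 6 genes from their own means was -0.32 to -0.18 in the PGC arrays and -0.37 to -0.31 in the GSC arrays, against 0.08 to 0.21 in CEF and 0.25 to 0.47 in blastoderm. None of the 6 genes was called higher in PGC or GSC than in CEF or blastoderm. SHFM1, the array symbol of a small lid subunit outside these genes, went the other way. It was called higher than in CEF and blastoderm in PGC (log2 1.95 and 1.94) and in GSC (log2 0.71 and 0.69).

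PSMD6, a structural lid subunit, read 9.04, 9.05 and 9.04 in PGC, 9.06, 8.94 and 8.80 in GSC, 9.40, 9.24 and 9.45 in CEF and 10.04, 9.95 and 9.83 in blastoderm. The blastoderm arrays were above the CEF arrays and these above all gonadal arrays. Against blastoderm it was lower in PGC (log2 -0.90, SE 0.12, adjusted p = 1.15e-05), in GSC (log2 -1.01, SE 0.12, adjusted p = 2.88e-06) and in CEF (log2 -0.58, SE 0.12, adjusted p = 7.06e-04). It was also lower in GSC than in CEF (log2 -0.43, adjusted p = 0.00865). The call of PGC against CEF (log2 -0.32, adjusted p = 0.037) ended without PGC replicate 1 or 2, GSC replicate 2, CEF replicate 1 or 3, or blastoderm replicate 2 (log2 -0.39 to -0.28).

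PSMD7, the inactive partner of the deubiquitinase PSMD14, read 9.54, 9.54 and 9.41 in PGC, 9.42, 9.20 and 9.15 in GSC, 10.30, 10.41 and 10.14 in CEF and 10.19, 10.03 and 9.93 in blastoderm. All CEF and blastoderm arrays were above all gonadal arrays. Against CEF it was lower in PGC (log2 -0.79, SE 0.12, adjusted p = 4.79e-05) and in GSC (log2 -1.03, SE 0.12, adjusted p = 3.20e-06). Against blastoderm it was lower in PGC (log2 -0.55, SE 0.12, adjusted p = 0.00121) and in GSC (log2 -0.80, SE 0.12, adjusted p = 3.62e-05). Its other probe set, with a mean of 2.5, below background, ran the other way in these comparisons, from 0.28 to 0.71. The largest of these, PGC minus blastoderm, was called higher. None of the 4 calls of the probe set used held with the average of both.

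PSMD14, the deubiquitinase, averaged 9.64 ± 0.29 in PGC and 9.17 ± 0.05 in GSC, with 9.54 ± 0.06 in CEF and 9.89 ± 0.17 in blastoderm. It was lower in GSC than in blastoderm (log2 -0.73, SE 0.14, adjusted p = 4.63e-04), and its calls of PGC over GSC (log2 0.48) and GSC under CEF (log2 -0.37) ended without GSC replicate 2 or GSC replicate 3, among other arrays. PSMD12, a scaffold of the lid, averaged 8.76 ± 0.35 in PGC and 8.65 ± 0.08 in GSC, with 8.86 ± 0.14 in CEF and 9.57 ± 0.29 in blastoderm. It was lower than in blastoderm in PGC (log2 -0.81), in GSC (log2 -0.92) and in CEF (log2 -0.71), with adjusted p of 0.0016, 5.09e-04 and 0.00376. PSMD13, another lid subunit, averaged 5.95 ± 0.31 in PGC and 6.14 ± 0.17 in GSC, with 6.74 ± 0.20 in CEF and 6.52 ± 0.10 in blastoderm. It was lower in PGC than in CEF (log2 -0.79, SE 0.20, adjusted p = 0.00503).

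The chaperones PSMD5, PSMD9 and PSMD10 hold ATPases during assembly of the base and leave before the proteasome is complete. PSMD5 read 8.80, 8.42 and 8.31 in PGC, 8.01, 8.02 and 7.73 in GSC, 8.92, 8.86 and 8.83 in CEF and 8.76, 8.89 and 8.82 in blastoderm. GSC lay below every other array. PSMD5 was lower in GSC than in CEF (log2 -0.95, SE 0.15, adjusted p = 1.03e-04) and in blastoderm (log2 -0.91, SE 0.15, adjusted p = 1.23e-04). It was higher in PGC than in GSC (log2 0.59, SE 0.15, adjusted p = 0.0092), a call that ended without PGC replicate 1 (log2 0.44 to 0.69), while its second probe set, with a mean of 7.68, gave 0.88, also called. That probe set gave -0.51, not called, for GSC minus blastoderm, and 0.82, called, for CEF minus blastoderm, where the probe set used gave 0.04.

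PSMD9 was lowest in CEF. It read 8.34, 8.07 and 8.11 in PGC, 8.21, 8.01 and 7.93 in GSC, 7.75, 7.40 and 7.59 in CEF and 8.58, 8.51 and 8.30 in blastoderm. All CEF arrays were below all others. It was higher in PGC than in CEF (log2 0.60, SE 0.16, adjusted p = 0.00653) and lower in CEF than in blastoderm (log2 -0.88, SE 0.16, adjusted p = 2.20e-04). The calls of GSC over CEF (log2 0.47) and GSC under blastoderm (log2 -0.42) each ended without GSC replicate 2, among other arrays. PSMD10, also known as gankyrin, averaged 7.96 ± 0.13 in PGC and 7.64 ± 0.32 in GSC, with 7.46 ± 0.20 in CEF and 7.0 ± 0.20 in blastoderm, and was higher in PGC than in blastoderm (log2 0.96, SE 0.19, adjusted p = 7.32e-04).

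PSMG1 with PSMG2, and PSMG3 with PSMG4, act as pairs that assemble the alpha ring. PSMG4 read 8.5, 8.47 and 8.02 in PGC, 8.14, 7.36 and 7.27 in GSC, 6.91, 7.0 and 6.93 in CEF and 7.85, 7.62 and 7.61 in blastoderm. CEF lay below all other arrays, and GSC replicate 1 lay within the PGC range. PSMG4 was 2.61-fold higher in PGC than in CEF (log2 1.38, SE 0.22, adjusted p = 7.42e-05), lower in CEF than in blastoderm (log2 -0.74, SE 0.22, adjusted p = 0.0107), and both calls held under all alternatives, the first at 0.80 with the average over probe sets. Its difference between PGC and GSC (log2 0.74, SE 0.22, adjusted p = 0.0201) was 0.07 on a second probe set of mean 7.28, and the call ended without PGC replicate 1, PGC replicate 2, GSC replicate 2 or GSC replicate 3 (log2 0.58 to 1.02).

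PSMG3, the partner of PSMG4, averaged 7.93 ± 0.23 in PGC and 7.24 ± 0.21 in GSC, with 7.73 ± 0.12 in CEF and 7.16 ± 0.27 in blastoderm. It was higher in PGC than in GSC (log2 0.68, adjusted p = 0.0148) and than in blastoderm (log2 0.77, adjusted p = 0.0038), and the first of these ended without PGC replicate 1, GSC replicate 2 or GSC replicate 3 (log2 0.56 to 0.81). Both ended with the average over its probe sets (log2 0.23 and 0.12), of which the other, with a mean of 2.4, lay below background. PSMG2 averaged 8.26 ± 0.12 in PGC and 7.71 ± 0.18 in GSC, with 8.27 ± 0.25 in CEF and 8.21 ± 0.15 in blastoderm. PSMG2 was called lower in GSC than in each other group, by 0.50 to 0.56, and all 3 calls ended without GSC replicate 3. PSMG1 was called once, lower in GSC than in blastoderm (log2 -0.42, adjusted p = 0.0421), a call that ended without any single GSC array and without blastoderm replicate 2 or 3 (log2 -0.55 to -0.32).

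**Figure D4:**
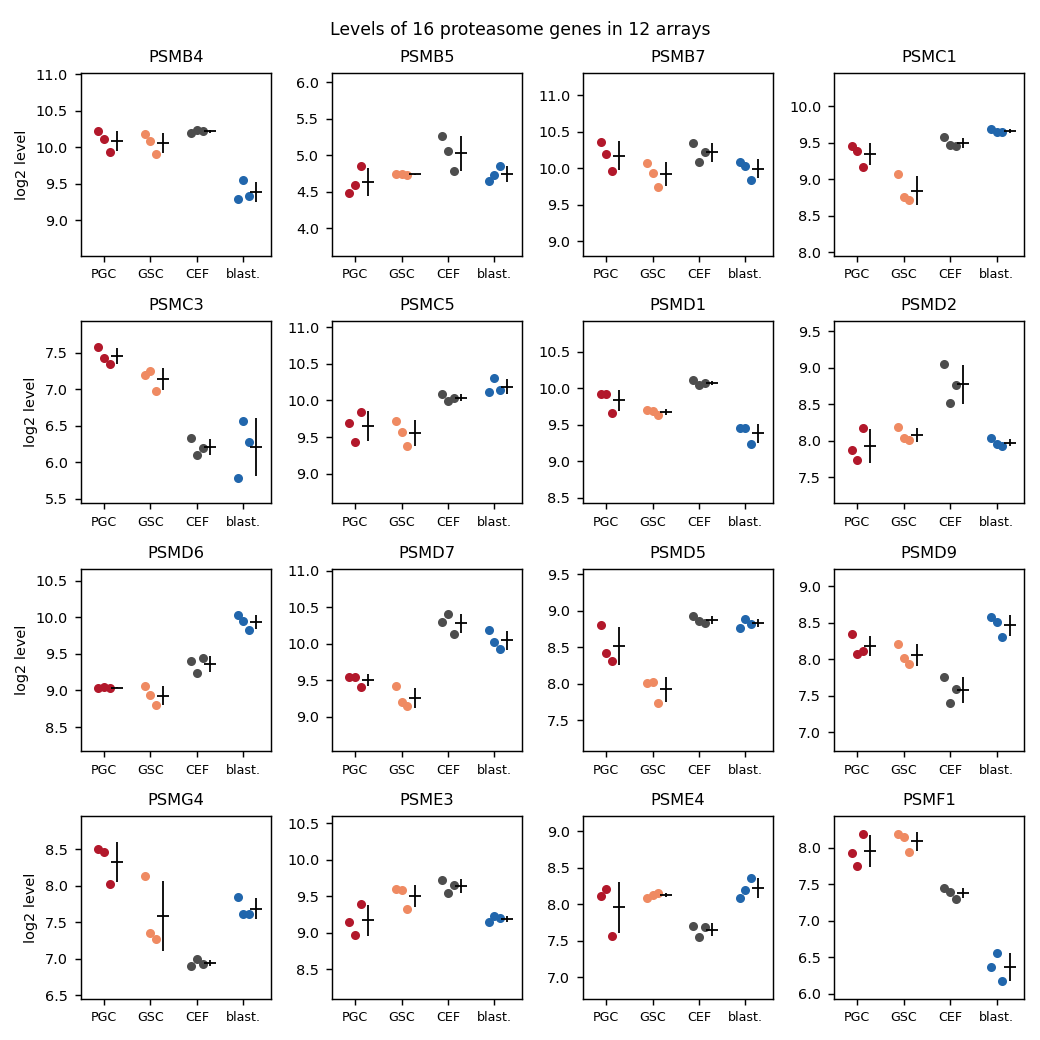
Log2 level (y axis) of 16 proteasome genes in the 3 arrays of each group (points, replicates 1 to 3 from left to right), with the mean and SD of the group beside them; every panel spans the same height on the log2 axis. PSMB5 and PSMB7 overlap between most groups, PSMF1 and PSMB4 are lowest in blastoderm, PSMD6 and PSMD7 are lower in PGC and GSC than in CEF and blastoderm, and PSMD2 is highest in CEF.

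For 16 of the 36 genes the array held further probe sets, 21 in all, annotated to the same genes. Of these, 12 were above background in at least 1 group, giving 72 gene-by-comparison pairs. Both probe sets were called in the same direction in 15 pairs and in opposite directions in 2, both of PSMC3. In 12 pairs only the probe set used was called, in 10 only the other, and in 33 neither. The second PSMD2 probe set also gave lower levels in PGC (log2 -0.83) and GSC (log2 -0.60) than in CEF, but for CEF minus blastoderm it gave 0.35, not called, where the probe set used gave 0.80. A second PSMD13 probe set gave lower levels in PGC (log2 -0.94) and GSC (log2 -0.69) than in CEF. Both other PSME4 probe sets were called lower in PGC than in GSC (log2 -0.77 and -0.65) and than in blastoderm (log2 -1.0 and -0.90), where the probe set used gave -0.16 and -0.25 and was not called. A second PSMB7 probe set of mean 5.93 was called lower in PGC (log2 -0.88) and in CEF (log2 -0.83) than in blastoderm, where the probe set used gave 0.18 and 0.23. The remaining 9 probe sets did not exceed background in any group. Of their 54 pairs, 3 were called in the same direction as the probe set used and 3 in the opposite direction, those of PSMD7, PSME3 and PSMG3.

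**Figure D5:**
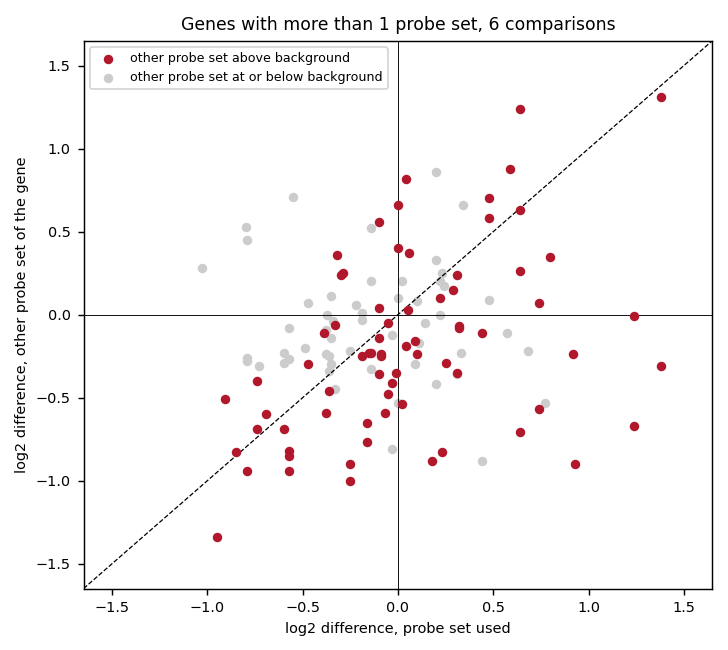
Log2 difference on the other probe set (y axis) against that on the probe set used (x axis) for the 16 genes with several probe sets in the 6 comparisons; red points have the other probe set above background and grey points at or below it, and the dashed line marks equal values. Points scatter widely around the line, and those at 0.92 to 1.24 on the x axis with negative y values belong to PSMC3, beside PSMG4 at 1.38.

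Of 13 listed symbols for partners of the complex outside the PSM symbols, SEM1 and KIAA0368 are alternative symbols of SHFM1 and ECPAS. The 11 others were all measured. In PGC against GSC 4 were called higher and 0 lower, in PGC against CEF 3 and 2, in PGC against blastoderm 2 and 3, in GSC against CEF 2 and 4, in GSC against blastoderm 2 and 6, and in CEF against blastoderm 0 and 4. These counts, and those of the regulators further on, stand against 36.8% to 67.6% of the well-expressed genes called in the 6 comparisons. POMP, which completes core assembly, read 9.18, 9.42 and 9.25 in PGC, 9.73, 9.30 and 9.11 in GSC, 10.06, 9.87 and 9.85 in CEF and 10.23, 10.11 and 10.15 in blastoderm. The gonadal arrays were all below the others, and POMP was lower than in blastoderm in PGC (log2 -0.89, SE 0.14, adjusted p = 9.89e-05) and in GSC (log2 -0.79, SE 0.14, adjusted p = 2.77e-04). ADRM1, a ubiquitin receptor of the base, was lower than in blastoderm in PGC (log2 -0.67), in GSC (log2 -0.54) and in CEF (log2 -0.42). The largest called differences of these partners in CEF against blastoderm were those of ZFAND5 (log2 -1.27) and AKIRIN2 (log2 -0.92).

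UCHL5, a deubiquitinase that docks on ADRM1, read 8.97, 9.12 and 8.13 in PGC, 7.93, 7.61 and 7.74 in GSC, 8.69, 8.45 and 8.59 in CEF and 9.52, 8.92 and 8.81 in blastoderm. GSC arrays were below all others, and UCHL5 was lower in GSC than in blastoderm (log2 -1.32, SE 0.23, adjusted p = 2.08e-04) and higher in PGC than in GSC (log2 0.98, SE 0.23, adjusted p = 0.00563). SHFM1, the symbol on the array for a small lid subunit, was higher in PGC than in GSC (log2 1.24, SE 0.26), CEF (log2 1.95, SE 0.26) and blastoderm (log2 1.94, SE 0.26), with means of 5.78 in PGC and 4.53 in GSC, with 3.82 in CEF and 3.84 in blastoderm, the last pair close to background. ECPAS, a large adaptor that binds proteasomes, was higher in PGC than in GSC (log2 0.89, SE 0.19), CEF (log2 1.27, SE 0.19) and blastoderm (log2 1.29, SE 0.19).

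NFE2L1 is a transcription factor that raises proteasome genes when proteasome activity is low, working with the small MAF proteins and activated through NGLY1 and DDI2. Of 8 listed regulators 7 were measured. The counts called higher and lower were 0 and 1 in PGC against GSC, 1 and 3 in PGC against CEF, 1 and 4 in PGC against blastoderm, 0 and 3 in GSC against CEF, 2 and 3 in GSC against blastoderm, and 3 and 4 in CEF against blastoderm. The gene higher in PGC than in CEF, MAFG, was below background in every group, and it was also 1 of the 4 lower in CEF than in blastoderm. NFE2L1 read 9.22, 8.91 and 9.03 in PGC, 9.33, 9.09 and 9.25 in GSC, 9.99, 9.99 and 9.66 in CEF and 8.66, 8.75 and 8.78 in blastoderm. CEF was above and blastoderm below all gonadal arrays. NFE2L1 was lower than in CEF in PGC (log2 -0.83, SE 0.13, adjusted p = 9.72e-05) and in GSC (log2 -0.66, SE 0.13, adjusted p = 9.49e-04), and higher in CEF than in blastoderm (log2 1.15, SE 0.13, adjusted p = 2.15e-06).

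Of its small MAF partners, MAFK and MAFF were also highest in CEF, while MAFG, below background, was lowest there. MAFK averaged 7.98 ± 0.24 in PGC and 7.91 ± 0.47 in GSC, with 9.86 ± 0.20 in CEF and 7.02 ± 0.23 in blastoderm, a difference of 2.84 between CEF and blastoderm (SE 0.22, adjusted p = 1.74e-08). MAFF averaged 5.84 ± 0.38 in PGC and 6.86 ± 0.29 in GSC, with 8.51 ± 0.05 in CEF and 6.47 ± 0.06 in blastoderm, a difference of 2.04 between CEF and blastoderm (SE 0.21, adjusted p = 5.01e-07). NGLY1, the enzyme that strips sugar chains from NFE2L1, ran the other way, with 6.22 ± 0.46 in PGC and 6.29 ± 0.30 in GSC, with 6.72 ± 0.40 in CEF and 8.24 ± 0.36 in blastoderm. NGLY1 was lower than in blastoderm in PGC (log2 -2.02, SE 0.27, adjusted p = 1.60e-05), in GSC (log2 -1.95, SE 0.27, adjusted p = 1.96e-05) and in CEF (log2 -1.52, SE 0.27, adjusted p = 2.06e-04). NFE2L2 and DDI2 were also called lower in CEF than in blastoderm (log2 -0.6 and -0.84).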

How the data were processed

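The authors deposited 1 table of log2 values for 38535 probe sets and 12 arrays, read as log2 from the values (1.02 to 13.18), already scaled between arrays. MAS5 is named in the submitters' processing notes without version or role, and the probe set annotation and how the log2 values were made are not given further in the sources used here. Control (96) and viral or reporter (746) probe sets were left out. Of the 37693 tested, 27166 had 1 gene symbol, 177 several and 10350 none; 6 probe sets with a proteasome symbol and another symbol were left out. The Entrez identifiers of all 36 genes gave the same symbol in the RefSeq annotation. No sequences or coordinates were used.

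Group means were fitted with limma 3.58.1 in R 4.3.3 over all 12 arrays (lmFit, eBayes with an intensity trend, 8 residual degrees of freedom), with 6 two-sided comparisons and an F test, and Benjamini-Hochberg adjustment over all probe sets of each. The fit was tested on simulated data with known changes and independent noise. That test required a recovered count for the largest changes only, so it does not tell how many smaller ones would be found. Tables were handled with pandas 2.3.3. The number of arrays limits the precision.

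Members, role lists, partner lists and tests were chosen with earlier results of these data known. Per-array values are given for the 10 members with the smallest F test p, the largest called difference in each direction of each comparison, the measured catalytic subunits PSMB5 and PSMB7, and PSME3, PSME4 and PSMF1. Among the partner genes they are given for POMP, UCHL5, NFE2L1 and UFD1L. The partner genes named are a selection of the called ones. No motif search was made in promoters. Each of the 78 calls was refitted under 23 alternatives: 12 that leave out an array, and quantile normalization, median centring, a filter on low values, offsets of 16 and 64 before the logarithm, no intensity trend, array weights, the replicate number as a block, only the arrays of the 2 groups, the average of all probe sets per gene, and probe sets not ending in _x_at or _s_at. Under the last, genes without such a probe set kept the one used. The main fit treated the samples as unpaired. Deviations of arrays of 1 number correlated at -0.18 to 0.21. These values cannot tell whether PGC and GSC samples of 1 number came from the same embryos.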

Additional observations from a re-analysis of the deposited data

How the results depend on the processing

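Of the 78 calls, 38 held under all 23 alternatives, and 1605 of the refits kept direction and call, 177 kept direction and lost the call, and 12 changed sign. For the 20 genes with 1 probe set, the average over probe sets and the choice by probe set ending left each difference unchanged. Those settings could therefore not test the calls of these genes on another probe set. Leaving out an array of a group not compared left each difference unchanged. So did the filter on low values, no intensity trend, the replicate block and only the arrays of the 2 groups. These settings could change a call only through the estimated spread or the adjustment. The sign changes all came from the choice of probe set. With probe sets not ending in _x_at or _s_at, PSMC3 gave -0.67 in PGC versus CEF, -0.01 in PGC versus blastoderm, -0.90 in GSC versus CEF and -0.24 in GSC versus blastoderm; PSMD7 gave 0.45, 0.71, 0.28 and 0.53 in the same comparisons; and PSME3 gave 0.07 in PGC versus CEF and -0.88 in CEF versus blastoderm. The probe sets that replaced PSMD7 and PSME3 (means 2.5 and 3.02) lay below background. With the average of all probe sets per gene, PSMD7 gave 0.08 in PGC versus blastoderm and PSME3 -0.18 in CEF versus blastoderm, and 17 of the 78 calls were lost. An offset of 64 moved PSMC3 to between 0.56 and 0.79 in its 4 calls, PSMF1 to 0.65 in CEF versus blastoderm, and PSMD13 to -0.44 in PGC versus CEF, -0.30 in PGC versus blastoderm and -0.35 in GSC versus CEF, all still called.

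The members called higher in PGC versus GSC, 7 as reported, were 11 with array weights, 4 with the average of all probe sets per gene and 3 with only the arrays of the 2 groups; called lower, 0 as reported, they were 2 with array weights and 1 with that average or with quantile normalization. Called higher in GSC versus CEF were 5 as reported and 2 with median centring, and called higher in GSC versus blastoderm 5 as reported and 8 with array weights. With each array left out in turn, the counts higher and lower ranged over 0 to 10 and 0 to 1 in PGC versus GSC, 5 to 7 and 5 to 8 in PGC versus CEF, 6 to 8 and 4 to 7 in PGC versus blastoderm, 2 to 5 and 7 to 15 in GSC versus CEF, 3 to 6 and 7 to 11 in GSC versus blastoderm, and 7 to 10 and 4 to 7 in CEF versus blastoderm, and 20 to 25 genes differed by the F test. The replicate number as a block kept 75 of the 78 calls and lost 3, which were PSMA1 and PSME4 in GSC versus CEF and PSMG1 in GSC versus blastoderm. The cause of these changes was not tested.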

Other observations

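Of 12 listed symbols for shuttle proteins and the segregase that extract and deliver ubiquitin-tagged proteins, 9 were measured. The unmeasured UFD1 is an alternative symbol of UFD1L. UFD1L, a cofactor of the segregase VCP, read 8.91, 8.89 and 9.19 in PGC, 9.18, 8.91 and 8.80 in GSC, 9.16, 9.07 and 9.09 in CEF and 7.72, 7.53 and 7.27 in blastoderm. It was higher than in blastoderm in PGC (log2 1.49, SE 0.15), in GSC (log2 1.46, SE 0.15) and in CEF (log2 1.6, SE 0.15), with limma adjusted p of 1.03e-06, 1.08e-06 and 2.88e-07. VCP itself was called in CEF versus blastoderm alone, by 0.40 (SE 0.10, adjusted p = 0.00332). The shuttle protein RAD23B was higher in PGC than in CEF (log2 0.88) and in GSC than in CEF (log2 0.92), and lower in CEF than in blastoderm (log2 -1.05). The shuttle protein UBQLN1 was lower in GSC than in CEF (log2 -1.17) and blastoderm (log2 -1.27). It was higher in PGC than in GSC (log2 0.76, SE 0.21, limma adjusted p = 0.0147), although PGC replicate 3 lay below GSC replicate 1. The 23 alternatives were run for the 78 calls of the proteasome genes and not for those of the partner genes.

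RPS27A, which encodes ubiquitin fused to a ribosomal protein, was the one measured of 4 listed ubiquitin genes. It averaged 12.27 ± 0.01 in PGC and 12.05 ± 0.09 in blastoderm (SD, n = 3), a difference of 0.21 (SE 0.06, limma adjusted p = 0.00949), and was called in no other comparison. UBA6, 1 of 2 listed ubiquitin-activating enzymes, was lower in GSC than in CEF (log2 -0.70, SE 0.25) and in blastoderm (log2 -0.86, SE 0.25).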
